A study of Mus musculus with 2 samples.

Results

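The forebrain of newborn mice was examined for 10 members of the Sox family of transcription factors: Sox1, Sox2, Sox3, Sox4, Sox6, Sox8, Sox9, Sox11, Sox12 and Sox21. They were taken by name, 10 of the 55536 genes listed in annotation release M21 and 10 of the 20 mouse Sox genes. Polyadenylated RNA was sequenced from the forebrain of B6NCrl pups on the day of birth (age 0 days), in 1 library from pup 3 and 1 from pup 1. The 2 libraries form 1 group, and the labels name no other genotype, treatment or time. Each was made from 10 ng of RNA of a single forebrain. The sex of the pups is not recorded and a single donor identifier is listed for both, so the spread between them is that of these 2 libraries and may be partly technical.

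Sox proteins bind DNA through a high-mobility-group (HMG) box, which bends the DNA, and are sorted into subgroups by the sequence of that box. SoxB1 factors (Sox1, Sox2, Sox3) keep neural progenitors undifferentiated, SoxB2 factors such as Sox21 oppose them, SoxC factors (Sox4, Sox11, Sox12) switch on genes of young neurons, and SoxE factors (Sox8, Sox9, with Sox10) act in glia and in their precursors. Sox6 belongs to SoxD, whose members lack a transactivation domain of their own and act in maturing interneurons and oligodendrocyte precursors.

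All 10 genes were detected in both pups, at a level of 1 TPM (an abundance corrected for transcript length and scaled to the library) or more. By comparison, 15010 genes in pup 3 and 15864 in pup 1 reached that level, with 55536 genes listed in M21. The SoxC genes Sox11 and Sox4 stood far above the rest, at 216 ± 30.5 and 169 ± 2.01 TPM (mean ± SD of the 2 pups, as in all TPM values with ± that follow). Sox9, Sox6, Sox2 and Sox8 followed between 17.6 and 31.1 TPM, Sox12 stood at 8.87 ± 1.32 TPM, and Sox21, Sox1 and Sox3 stood between 1.95 and 3.08 TPM. The highest mean was 111-fold above the lowest. The level given for Sox6 depended on the annotation, as set out below. In bulk tissue, fewer cells of a type and less RNA per cell cannot be told apart.

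**Figure D1:**
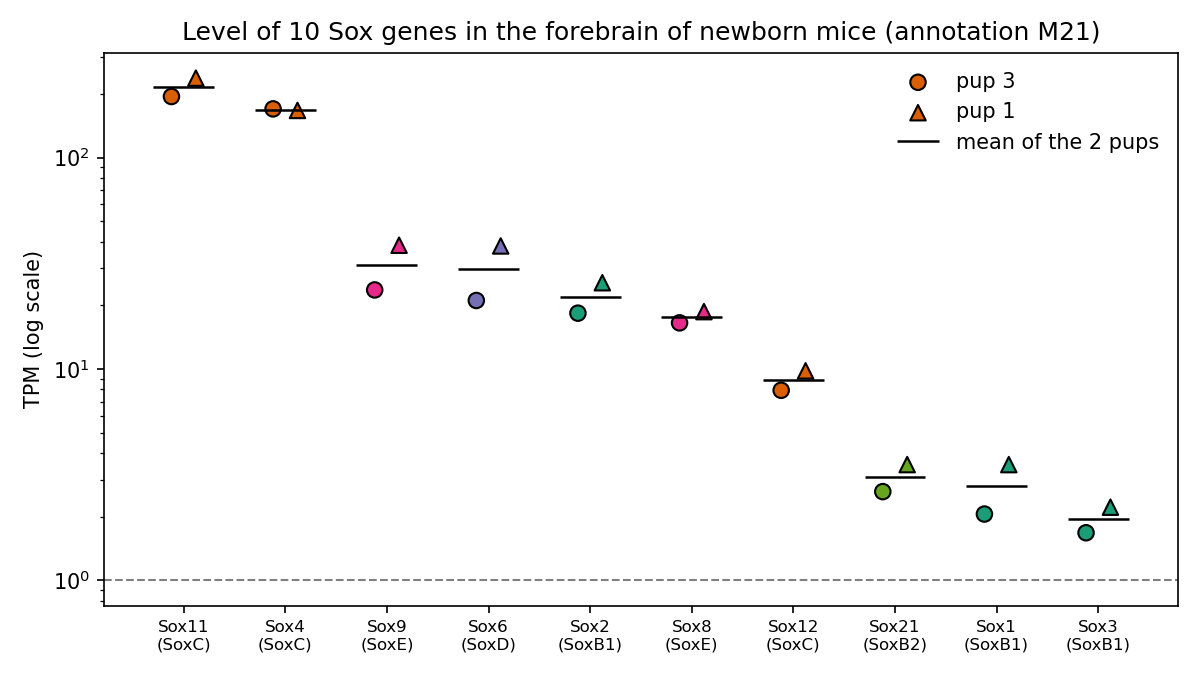
Level of the 10 Sox genes in each pup, in TPM on a log scale, where circles are pup 3, triangles are pup 1, horizontal lines are the mean of the 2 pups, the dashed line is the detection limit of 1 TPM, and colours mark the subgroups. Sox11 and Sox4 lie above 167 TPM in both pups, and no other gene passes 38.5 TPM.

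The regions before the start sites of the 3 SoxC genes and of Sox2 are shown because these genes cover most of the range of levels, with Sox4 and Sox12 far apart in level within a subgroup. Each is the 250 bases upstream of the RefSeq start site (build GRCm38.p6), read 5′ to 3′ along the gene's strand. Capitals mark matches, on either strand, to CCAAT (a box bound by the factor NF-Y), to ATGCAAA (the leading letters of the octamer bound by POU factors, which pair with SoxB1 proteins), to ACAANG (a core bound by Sox proteins) or to TATAAA (the TATA box).
Sox11, chr12:27342719-27342968, - strand: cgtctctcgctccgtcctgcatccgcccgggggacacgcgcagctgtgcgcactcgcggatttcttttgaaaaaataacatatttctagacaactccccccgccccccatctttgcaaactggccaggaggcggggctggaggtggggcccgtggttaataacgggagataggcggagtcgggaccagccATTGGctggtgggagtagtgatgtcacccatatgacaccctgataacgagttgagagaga
Sox4, chr13:28953700-28953949, - strand: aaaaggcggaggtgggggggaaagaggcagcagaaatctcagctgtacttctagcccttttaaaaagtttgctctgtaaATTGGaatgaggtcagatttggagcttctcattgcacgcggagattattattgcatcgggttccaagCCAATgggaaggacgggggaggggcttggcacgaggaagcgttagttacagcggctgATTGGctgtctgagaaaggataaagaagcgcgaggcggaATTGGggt
Sox12, chr2:152398047-152398296, - strand: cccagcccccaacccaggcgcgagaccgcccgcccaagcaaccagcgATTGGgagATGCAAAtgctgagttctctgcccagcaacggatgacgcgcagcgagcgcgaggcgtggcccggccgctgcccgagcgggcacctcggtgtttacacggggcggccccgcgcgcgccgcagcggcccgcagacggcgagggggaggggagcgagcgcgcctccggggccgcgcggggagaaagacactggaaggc
Sox2, chr3:34649745-34649994, + strand: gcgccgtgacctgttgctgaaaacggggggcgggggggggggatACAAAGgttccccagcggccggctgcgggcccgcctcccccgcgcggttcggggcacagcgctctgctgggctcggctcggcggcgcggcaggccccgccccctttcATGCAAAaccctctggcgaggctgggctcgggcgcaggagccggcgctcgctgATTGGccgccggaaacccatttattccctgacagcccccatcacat
CCAAT was matched 4 times in the Sox4 region and once in each of the Sox11, Sox12 and Sox2 regions. ATGCAAA was matched in the Sox12 and Sox2 regions and ACAANG in that of Sox2, and none of the 4 regions held TATAAA. Over all 32851 upstream windows of the same length, 33.8% held CCAAT, 4.12% held ATGCAAA, 36.3% held ACAANG and 12.4% held TATAAA. RefSeq windows were matched for 8 of the 10 genes, Sox3 and Sox9 being the others, and 13 windows were found in all, 6 of the windows belonging to Sox6. Among the 7 genes with 1 window each, CCAAT was present in 5 (Sox1, Sox2, Sox4, Sox11 and Sox12), ATGCAAA in 2, ACAANG in 2 (Sox1 and Sox2) and TATAAA in 0. With Sox6, whose 6 windows give more room for a match, CCAAT was present in 6 genes, ATGCAAA in 2, ACAANG in 3 and TATAAA in 1. The GC content was 50.8% in the Sox4 window, 58.0% in that of Sox11, 72.0% in that of Sox2 and 74.4% in that of Sox12, against a median of 52.4% over all windows. The RefSeq start lies 410 bases upstream of the M21 start for Sox2 and 144 bases upstream for Sox11. On the same scale it lies at -224 bases for Sox1, -17 for Sox12 and -14 for Sox4, which is downstream of the M21 start. The ACAANG match of Sox1 and the Sox4 CCAAT match nearest the start therefore lie inside the M21 transcripts. These are matches of letters in a window and not sites shown to be bound.

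The SoxC genes carried most of the Sox message of this tissue. Sox11 (ENSMUSG00000063632, chromosome 12, 27334264 to 27342574, minus strand, mm10), which drives pan-neuronal genes as progenitors leave the cycle, had 194.5 TPM in pup 3 against 237.7 TPM in pup 1, from 46991 and 50952 expected counts. Sox4 (ENSMUSG00000076431, chromosome 13, 28948919 to 28953713, minus strand), which overlaps in role with Sox11, had 170.0 TPM in pup 3 against 167 TPM in pup 1, from 23485 and 20491 counts. Sox11 was the higher of the pair in both pups, and their ranges did not overlap. The ratio of Sox11 to Sox4 was 1.14 in pup 3 and 1.42 in pup 1, a mean log2 ratio of 0.35 ± 0.22 (SD, n = 2 pups). Sox11 exceeded 94.1% (pup 3) and 95.2% (pup 1) of detected protein-coding genes, and Sox4 exceeded 93.1% and 92.5%. Sox12 (ENSMUSG00000051817, chromosome 2, 152393611 to 152398063, minus strand), a SoxC gene whose loss alone is tolerated in mice, had 7.93 TPM in pup 3 against 9.80 TPM in pup 1. Sox4 exceeded Sox12 by 21.4-fold in pup 3 and 17.1-fold in pup 1, a mean log2 ratio of 4.26 ± 0.23.

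Together the 3 SoxC genes held 72.6% of the TPM of all 20 Sox genes in pup 3 and 66.6% in pup 1, a mean of 69.6% ± 4.23 (SD, n = 2 pups). SoxD genes held 13.1% ± 2.49, SoxE genes 9.30% ± 1.01, SoxB1 genes 4.67% ± 0.513 and SoxB2 genes 0.706% ± 0.189. Summed TPM of SoxC was 16.8-fold that of SoxB1 in pup 3 and 13.2-fold in pup 1. When transcripts under 1000 bases were left out, a choice made after seeing the data, the share of SoxC was 75.4% ± 3.44 and that of SoxD 6.40% ± 1.13. With annotation release M4 the shares were 73.3% ± 3.52 for SoxC and 8.70% ± 1.61 for SoxD.

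**Figure D2:**
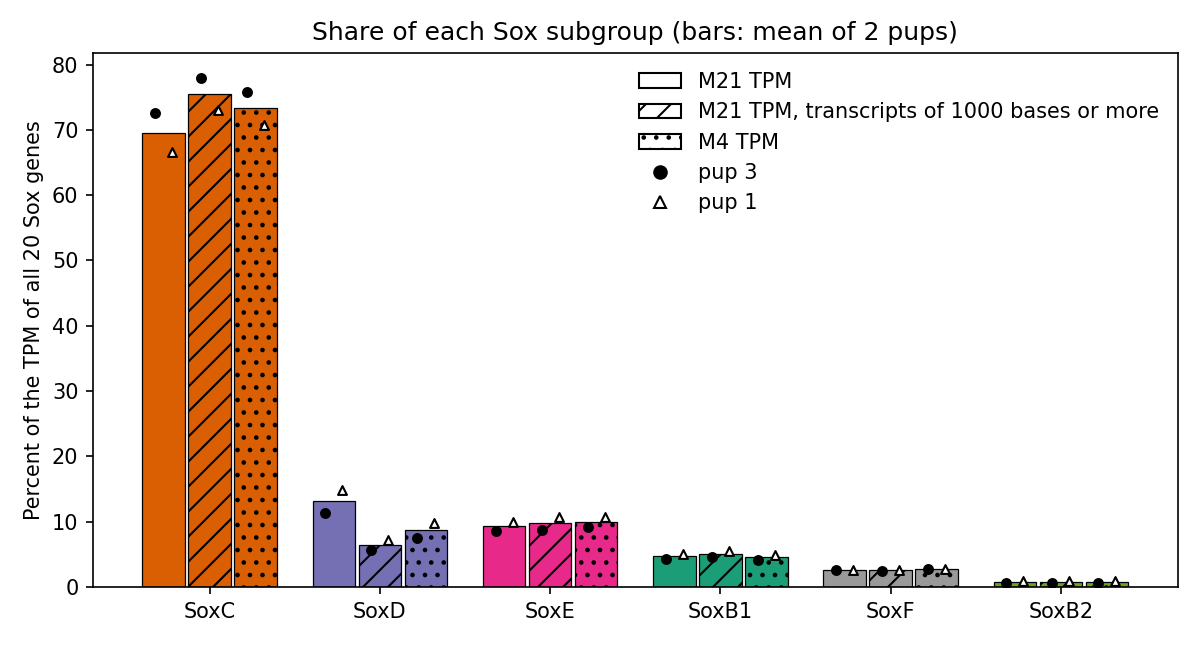
Share of each Sox subgroup in the TPM of all 20 Sox genes, in percent, where bars are means of the 2 pups, circles are pup 3 and triangles pup 1, with 1 bar each for all M21 transcripts, for M21 transcripts of 1000 bases or more, and for M4. SoxC holds 69.6% to 75.4%, and SoxD holds 13.1% over all M21 transcripts, 6.40% over the long ones and 8.70% in M4.

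The SoxB1 genes differed widely in level. Sox2 (ENSMUSG00000074637, chromosome 3, 34650405 to 34652461, plus strand), the factor most used to mark neural stem cells, had 18.4 TPM in pup 3 against 25.6 TPM in pup 1. Sox1 (ENSMUSG00000096014, chromosome 8, 12395295 to 12400126, plus strand), whose expression is nearly confined to neural cells in the embryo, had 2.06 TPM in pup 3 against 3.53 TPM in pup 1. Sox3 (ENSMUSG00000045179, X chromosome, 60891366 to 60893430, minus strand), a gene of hypothalamic and pituitary development, had 1.68 TPM in pup 3 against 2.22 TPM in pup 1, from 97 and 114 counts. Sox2 lay above both in each pup, by a mean log2 ratio of 3.01 ± 0.21 over Sox1 and 3.49 ± 0.05 over Sox3, while the ranges of Sox1 and Sox3 overlapped. The SoxB2 gene Sox21 (ENSMUSG00000061517, chromosome 14, 118233232 to 118237030, minus strand) had 2.63 TPM in pup 3 against 3.53 TPM in pup 1. The ratio of Sox2 to Sox21 was alike in the libraries, 6.98 in pup 3 and 7.25 in pup 1.

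Long noncoding RNAs overlap 2 of the SoxB1 genes on the same strand. Sox2 lies inside Sox2ot, which had 11.2 TPM in pup 3 against 27.3 TPM in pup 1, so that Sox2 was 1.65-fold Sox2ot in pup 3 and 0.937-fold in pup 1. Over transcripts of 1000 bases or more, Sox2 was the higher in both pups, 2.48-fold Sox2ot in pup 3 and 1.30-fold in pup 1. Sox1 lies inside Sox1ot, which had 2.65 TPM in pup 3 against 4.43 TPM in pup 1, with a ratio of Sox1 to Sox1ot of 0.777 in pup 3 and 0.797 in pup 1. The counts of Sox2 and Sox1 were whole numbers in both pups. On the opposite strand, the gene span of 2810468N07Rik shares 329 bases with that of Sox8, and that of Gm4675 shares 799 bases with that of Sox21. Spans run from gene start to gene end, introns included. The level of 2810468N07Rik was 9.73 TPM in pup 3 against 9.27 TPM in pup 1, and that of Gm4675 was 0.720 TPM in pup 3 against 0.660 TPM in pup 1. The counts of each of these opposite-strand pairs were fractional but summed to a whole number, 1684 in pup 3 and 1666 in pup 1 for Sox8 with 2810468N07Rik, and 320 in pup 3 and 370 in pup 1 for Sox21 with Gm4675, so the deposited counts divide reads between the strands there. The other overlapping entries held few or no counts: 1 in each pup for Sox6os, none in pup 3 and 2 in pup 1 for Gm45025, which both lie antisense to Sox6, and none in either pup for Gm26735, antisense to Sox4, and for the microRNA entry Gm25239 within Sox1.

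Both SoxE members were expressed near the level of Sox2. Sox9 (ENSMUSG00000000567, chromosome 11, 112782224 to 112787760, plus strand), which acts in radial glia and astrocyte formation, had 23.7 TPM in pup 3 against 38.5 TPM in pup 1. Sox8 (ENSMUSG00000024176, chromosome 17, 25565892 to 25570686, minus strand), a glial factor that overlaps in role with Sox9 and Sox10, had 16.5 TPM in pup 3 against 18.7 TPM in pup 1. Sox9 exceeded Sox8 by 1.43-fold in pup 3 and 2.06-fold in pup 1. Sox10, the SoxE factor of committed oligodendrocyte cells, stood lower at 3.85 TPM in pup 3 against 5.17 TPM in pup 1, and Sox8 exceeded it by 4.29-fold in pup 3 and 3.61-fold in pup 1. The 3000-base transcript of Sox8, with 3 exons, held 89.9% ± 2.91 of the TPM of the gene (SD, n = 2 pups).

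Sox6 was the gene whose level rested on short transcripts. Sox6 (ENSMUSG00000051910, chromosome 7, 115470872 to 116038796, minus strand) had 21.1 TPM in pup 3 against 38.2 TPM in pup 1 in release M21, a mean of 29.6 ± 12.1 TPM, which placed it level with Sox9. M21 lists 16 Sox6 transcripts, and 3 of them are under 500 bases long. Those 3 held 71.5% of the gene's TPM in pup 3 against 75.2% in pup 1, but 13.9% and 16.6% of its expected counts. The 448-base entry, annotated as an incomplete coding transcript, was the leading one by TPM, with 7.04 TPM from 72.3 counts in pup 3 and 14.6 TPM from 133 counts in pup 1. The 8668-base coding transcript held 55.9% of the counts in pup 3 and 52.2% in pup 1, and 10.7% and 8.72% of the TPM.

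**Figure D3:**
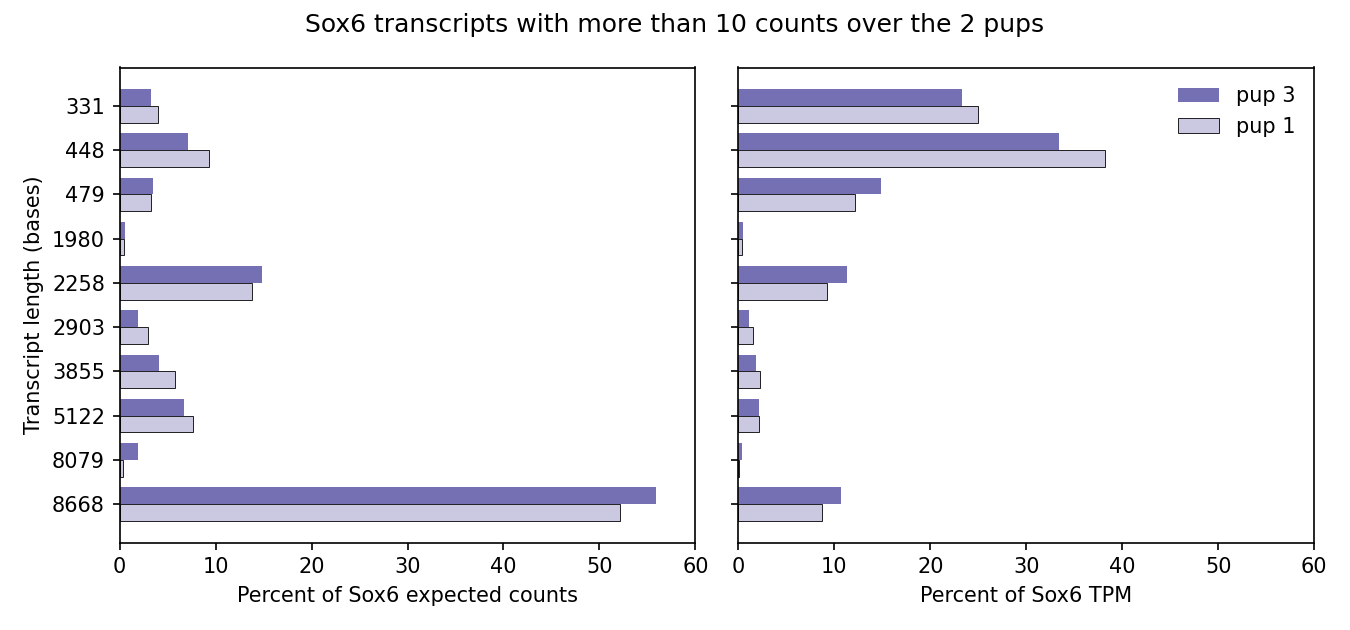
Share of each Sox6 transcript in the expected counts (left) and in the TPM (right) of the gene, in percent, by transcript length in bases, with dark bars for pup 3 and light bars for pup 1, for the transcripts with more than 10 counts over both pups. The longest transcript, of 8668 bases, takes over 52% of the counts, and the 3 shortest take over 71% of the TPM.

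From transcripts of 1000 bases or more, Sox6 had 5.89 TPM in pup 3 against 9.25 TPM in pup 1, a mean of 7.57 ± 2.38 TPM. Release M4, which lists 5 Sox6 transcripts of 2825 to 8227 bases, gave 6.03 TPM in pup 3 against 10.1 TPM in pup 1. The mean level in M21 was thus 3.67-fold that in M4, although the counts assigned to the gene were close, at 1016 in M21 and 896 in M4 for pup 3 and 1429 in M21 and 1274 in M4 for pup 1. A gap over 2-fold in this direction was found in 2.35% of 10267 protein-coding genes with a mean of 5 TPM or more that both releases list, and over 50% of the TPM came from transcripts under 500 bases in 2.27% of 10329 such genes. The other 9 members stayed between 0.924 and 1.05 of their M4 level. Sox6 held rank 4 of the 10 in M21 and rank 7, below Sox12, both in M4 and from the long transcripts. Sox5, its SoxD partner, had 35.5 TPM in pup 3 against 51.9 TPM in pup 1, of which the long transcripts gave 19.3 TPM and 29.2 TPM. The ratio of Sox5 to Sox6 was 1.68 in pup 3 and 1.36 in pup 1 over all transcripts, and 3.27 in pup 3 and 3.15 in pup 1 over the long ones.

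**Figure D4:**
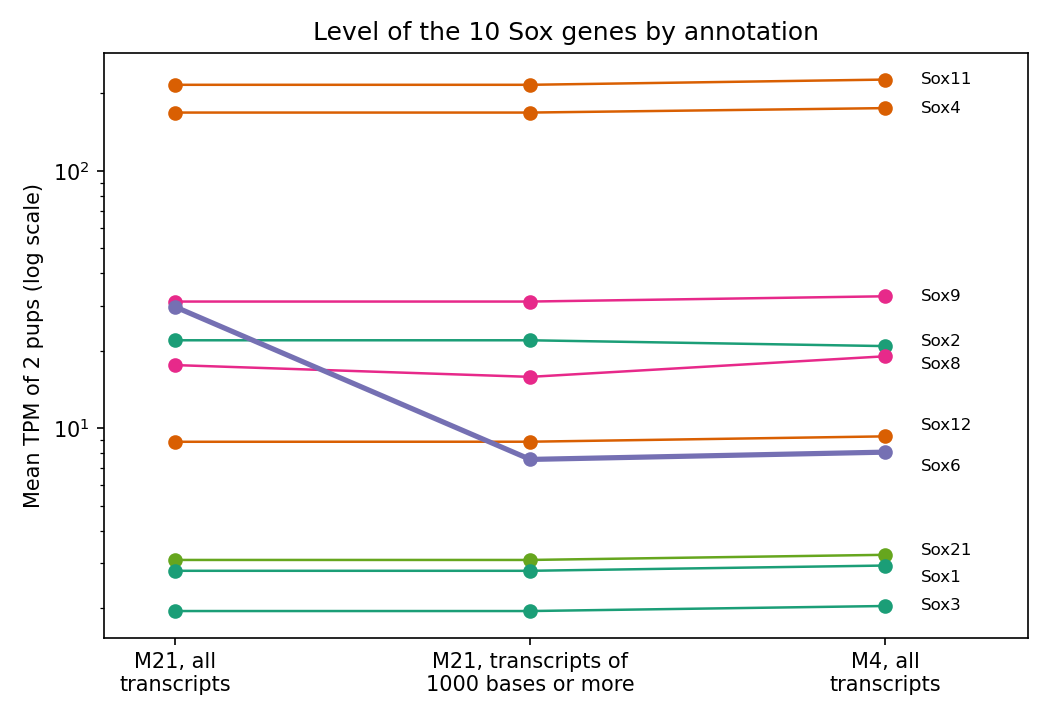
Mean TPM of the 10 Sox genes over the 2 pups (log scale) for all M21 transcripts, for M21 transcripts of 1000 bases or more, and for M4, where lines join the values of a gene and Sox6 is drawn thick. Sox6 moves from 29.6 TPM to 7.57 and 8.08 TPM, while the lines of the other 9 genes stay close to level.

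The order of the 10 genes was clear only in part. Of the 9 pairs of neighbours in the order by mean M21 TPM, 4 had ranges that did not overlap between the pups: Sox11 over Sox4, Sox4 over Sox9, Sox8 over Sox12 and Sox12 over Sox21. Sox9, Sox6, Sox2 and Sox8 overlapped with their neighbours, as did Sox21, Sox1 and Sox3. Within each library 8 of the 9 pairs kept the same order, the exception being Sox21 and Sox1, which both had 3.53 TPM in pup 1. The genes lie on 10 different chromosomes. In M21, 6 of them (Sox1, Sox2, Sox3, Sox4, Sox11 and Sox21) have a single exon, and the single-exon transcript of Sox12 held 87.3% ± 1.75 of its TPM, so that no splice junction marks the reads of most members.

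The pups differed modestly in these genes. TPM was lower in pup 3 for 9 of the 10 members, Sox4 being the exception, and so it was for 79.6% of 15463 genes with a mean of 1 TPM or more, whose median log2 ratio of pup 3 over pup 1 was -0.24 (on log2 of TPM + 1). Relative to that median, 8 members lay below it and 2 above it, where by construction 50% of all genes lie below. The ratio fell with transcript length, from a median of 0.33 in protein-coding genes under 1000 bases to -0.25 in those of 6000 or more. Relative to genes of like length, Sox3, Sox4, Sox8, Sox11 and Sox12 lay above the median and the other members below it. The median of the members was -0.07, with quartiles of -0.21 and 0.19 over all genes. No member was over 2-fold from the all-gene median, a difference that 1.39% of 11477 genes with 5 TPM or more in a pup (7 of the members among them) showed, 0.549% being higher and 0.845% lower in pup 3. With 1 library per pup these differences have no replicate check, and no p-value was computed.

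Sox6 had the lowest ratio relative to the all-gene median, at -0.59, followed by Sox9 at -0.44, Sox1 at -0.33 and Sox2 at -0.22, while Sox4 lay highest at 0.26. In CPM (counts scaled to the library total), which need no transcript lengths, the log2 ratio of pup 3 over pup 1 was -0.61 for Sox1 (95% counting interval -0.83 to -0.39), -0.54 for Sox9 (-0.61 to -0.47), -0.50 for Sox6 (-0.62 to -0.38), -0.32 for Sox2 (-0.43 to -0.20) and 0.19 for Sox4 (0.16 to 0.21). These 5 intervals left out the all-gene median of -0.12, as those of 61.6% of all genes did, so 5 of 10 is no more than the background. The interval lay wholly below the median for 4 members and for 30.7% of all genes, and wholly above it for 1 member and 30.9% of all genes. Those of Sox8, Sox11, Sox12, Sox3 and Sox21 held it. Sox4 and Sox11 share a subgroup, and the interval of Sox11, -0.14 to -0.11, did not reach that of Sox4. Compared with protein-coding genes of like transcript length, Sox4 lay at 0.44 and Sox11 at 0.20, Sox6 at -0.70 and Sox9 at -0.27. The length used for Sox6 was 1634 bases, a mean that its short transcripts lower. Transcripts of 5000 bases or more held 64.6% of its counts in pup 3 and 60.2% in pup 1, so its -0.70 is not a like-length value. Relative to all genes, Sox6 lay at -0.35 from transcripts of 1000 bases or more and at -0.42 in M4.

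**Figure D5:**
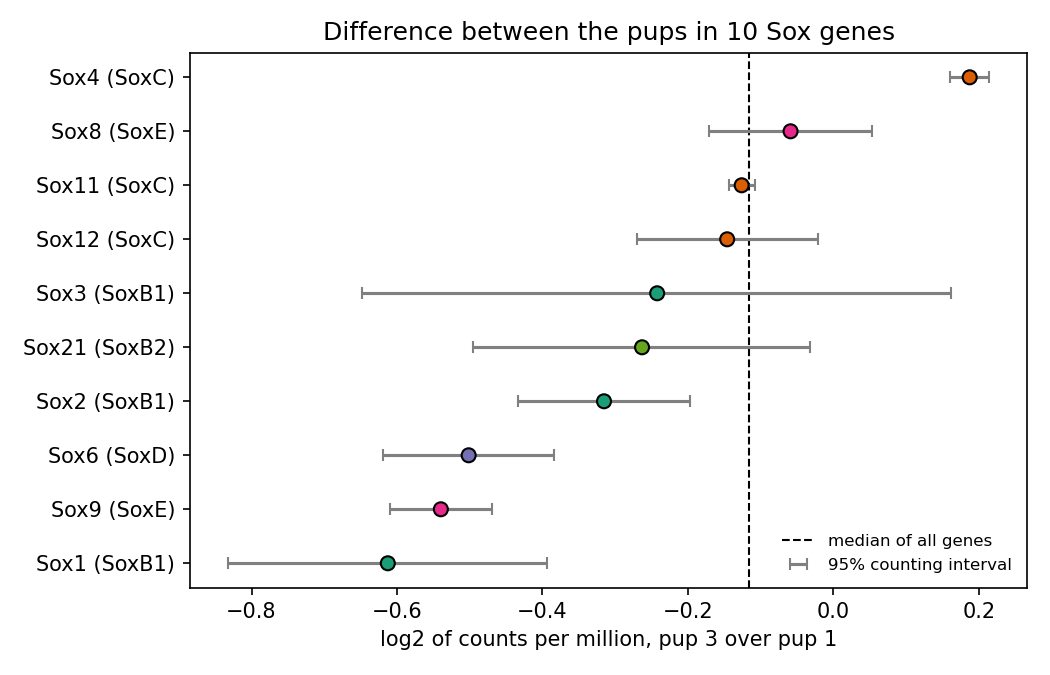
Log2 ratio of CPM in pup 3 over pup 1 for the 10 Sox genes, with exact 95% intervals that cover counting error alone, and the all-gene median of -0.12 as a dashed line. Sox4 lies above it and Sox1, Sox9, Sox6 and Sox2 below it with intervals that leave it out.

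Genes that mark the cells in which these factors act were present throughout. All 8 progenitor genes were detected, with a median of 48.3 TPM in pup 3 against 57.4 TPM in pup 1, led by Fabp7 (2239 ± 124 TPM), Vim (200.2 ± 31.0 TPM) and Slc1a3 (138 ± 29.1 TPM). All 6 genes of young neurons were detected, with a median of 237.2 TPM in pup 3 against 219 TPM in pup 1, led by Tubb3 (1687 ± 86.8 TPM), Stmn2 (1262 ± 137 TPM) and the cortical factor Neurod6 (256 ± 84.0 TPM). The median log2 ratio of pup 3 over pup 1, relative to all genes, was -0.07 for the progenitor list and 0.07 for the neuronal list, and no member of either was over 2-fold apart. Bulk RNA does not assign a Sox gene to a cell type.

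Lists of genes tied to each Sox subgroup were read beside the members. They repeat some genes of the lists above and are not separate from them. Nes, Hes5, Nr2e1 and Pax6 are also progenitor genes, and Tubb3, Map2 and Dcx are also genes of young neurons. All 5 partners of SoxB1 proteins were detected, at a median of 11.6 TPM in pup 3 against 15.7 TPM in pup 1, led by the POU factors Pou3f1 (20.7 ± 5.67 TPM) and Pou3f3 (20.5 ± 2.45 TPM) and by Pax6 (13.7 ± 2.94 TPM). Of 8 genes linked to SoxB1, 7 were detected in both pups, and the median over all 8 was 5.44 TPM in pup 3 against 6.99 TPM in pup 1, with the Notch effector Hes5 at 92.0 ± 9.93 TPM, Nes at 13.2 ± 2.30 TPM, Six3 at 10.7 ± 4.36 TPM and the ligand Shh at 0.260 TPM in pup 3 against 0.540 TPM in pup 1. The 5 genes linked to SoxC were detected at a median of 124 TPM in pup 3 against 181 TPM in pup 1, led by Tubb3, Map2 (199.6 ± 57.9 TPM) and Dcx (152 ± 40.4 TPM). The 9 glial genes linked to SoxE and SoxD were detected at a median of 12.2 TPM in pup 3 against 13.5 TPM in pup 1, led by Olig1 (107 ± 8.84 TPM), Mmd2 (95.3 ± 13.9 TPM) and Nfia (39.0 ± 12.1 TPM). Among the genes of these 4 lists with a mean of 1 TPM or more, which leaves out Shh, none was over 2-fold apart relative to all genes. The median log2 ratios of the lists on that scale lay between -0.13 and -0.06.

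The 5 genes listed for interneurons in connection with Sox6 were all detected, and whether their cells need Sox6 was not tested. The neuropeptides Sst and Npy stood at 417 ± 13.0 TPM and 389 ± 173 TPM, and the chromatin organiser Satb1 at 20.3 ± 2.60 TPM. Npy was over 2-fold higher in pup 3 relative to all genes, with a log2 ratio of 1.17, while Lhx6, the factor upstream of Sox6 in interneurons of the medial ganglionic eminence, lay at -0.69 with 13.0 TPM in pup 3 against 25.6 TPM in pup 1. Sox6 lay at -0.59 on the same scale, but at -0.35 from transcripts of 1000 bases or more and at -0.42 in M4. Of the rest of the list, Sst lay at 0.17, Satb1 at -0.01 and Pvalb at -0.21.

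Markers of other tissues that use these factors stayed low. Of 6 cartilage genes, which Sox9 and Sox6 switch on in the skeleton, 3 were detected in both pups: Cnmd (3.62 ± 1.26 TPM), Col2a1 (3.05 ± 1.46 TPM) and Col9a1 (1.54 ± 0.106 TPM). Acan, Matn1 and Comp stood at 0.220, 0.130 and 0.0400 TPM in pup 3 against 0.410, 0.220 and 0.240 TPM in pup 1. The summed level of the list was 6.75 TPM in pup 3 against 10.9 TPM in pup 1, lower in pup 3 as Sox9 and Sox6 were, and its part in those differences was not tested. None of 4 genes of Schwann cells and neural crest, the peripheral sites of SoxE factors, was detected in both pups, and their sum was 1.70 TPM in pup 3 against 1.63 TPM in pup 1. The highest was Prx at 0.870 TPM in pup 3 against 1.14 TPM in pup 1, and the others, all under 1 TPM in both pups, were Erbb3 (0.440 ± 0.141 TPM), Foxd3 (0.190 ± 0.141 TPM) and Pmp2, which was listed at 0 TPM in pup 3.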

How the data were processed

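The labels describe 2 libraries of polyadenylated RNA from single forebrains of B6NCrl pups, with 41230878 expected counts in pup 3 and 40964891 in pup 1, and 15010 and 15864 genes at 1 TPM or more. For each library the authors deposited gene and transcript tables for mm10 with annotation releases M21 and M4, per the README files, holding expected counts, TPM and FPKM. Transcript shares are the authors' deposited percent of the gene's TPM. The sources used here name neither aligner nor quantifier. The authors also deposited credibility bounds of TPM, kept as signal values and used in no result. Symbols, exons and coordinates came from GENCODE M21, and upstream sequences from RefSeq (GRCm38.p6).

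TPM divides counts by effective length, which is 99 bases under the deposited length, so a count weighs more in the TPM of a short transcript. The 2 libraries form 1 group: no test was possible, and differences are log2(TPM + 1) in pup 3 minus pup 1, relative to the median of genes with a mean of 1 TPM or more. Intervals of count ratios are exact binomial (Clopper-Pearson, 95%, counts rounded). Reads carry no molecular identifiers, so they cover counting error only. The code for differences was tested on simulated counts with counting error alone and changes larger than those of any member. Those counts held no trend with transcript length, so that run does not bear on differences as small as those given here. Alternatives used edgeR 4.0.16 (TMM) and DESeq2 1.42.0 (size factors) on rounded counts, under R 4.3.3, and Python 3.11.15 did the rest.

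The members and gene lists were chosen with earlier results of these data known. Named genes were all members, all other Sox genes, all genes that overlap a member, and from each list the 3 highest and any under 1 TPM in both pups. In the lists, 1 gene of the Schwann cell and neural crest list is not reported here and was left out of its values. Lhx6 and Pvalb were named after their values were seen. With 2 libraries, no likeness of pattern across samples was computed.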

Additional observations from a re-analysis of the deposited data

How the results depend on the processing

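All 10 members were detected with a TPM minimum of 0.5, with M4 and with posterior mean TPM, and 7 with a minimum of 5 TPM. The SoxC share of Sox TPM was 69.6% and stayed within its spread between pups with FPKM, posterior means, M4 and a filter on low genes. It was 86.4% in expected counts, which favour long transcripts, and 75.4% over transcripts of 1000 bases or more, chosen after seeing the data. Leaving out either replicate gave 66.6% to 72.6%. No member was over 2-fold apart between the pups under any of the 11 alternatives run, and the median member difference kept its sign in all of them. The median member difference was -0.07, and -0.30 both without subtracting the all-gene median and with no filter on low values. Those last settings gave every member the same value, so they are a single check. The setting with no filter is kept among the 11 settings below, although it in effect subtracted nothing. Relative to genes of like transcript length the median member difference was -0.002, so its sign carries no weight there. Relative to the median of all genes or of genes of like length, under 11 settings, Sox4 lay above 0 in all of them and Sox1, Sox2, Sox6, Sox9 and Sox21 below 0 in all, while Sox3, Sox8, Sox11 and Sox12 changed sign. The all-gene median itself was -0.24 in TPM, -0.09 in FPKM and 0.04 with TMM scaling. The leading Sox12 transcript took 87.3% of TPM in M21 and 85.2% in M4, and the cause was not tested. M4 lists no Sox6 transcript under 500 bases and gives no value for their share. Levels moved by more than the spread between pups for Sox4 with posterior means (164 TPM) and with M4 (175 TPM), for Sox6 with M4 (8.08 TPM) and with long transcripts (7.57 TPM), and for Sox8 with long transcripts (15.8 TPM). With 2 replicates, leaving 1 out cannot move a mean past that spread, so it says nothing of stability. No paired analysis was possible because the labels give only 1 group.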

Other observations

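The 10 Sox genes outside the members included 6 that were detected in both pups, among them Sox5 and Sox10. The SoxF genes of endothelial cells were detected in full: Sox18 at 6.86 TPM in pup 3 against 9.17 TPM in pup 1, Sox17 at 4.71 TPM in pup 3 against 5.05 TPM in pup 1, and Sox7 at 1.74 TPM in pup 3 against 2.15 TPM in pup 1. All 5 endothelial genes were detected beside them, at a median of 6.46 TPM in pup 3 against 8.78 TPM in pup 1, led by Cldn5 (106 ± 3.53 TPM), Pecam1 (8.92 ± 0.198 TPM) and Kdr (8.40 ± 2.79 TPM). Sox13, the remaining SoxD gene, stood at 1.61 TPM in pup 3 against 2.51 TPM in pup 1.

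Sox14, the SoxB2 partner of Sox21 and a gene of inhibitory neurons of the thalamus and midbrain, had 18 counts in pup 3 and 87 in pup 1. Its log2 ratio of CPM was -2.28 (95% counting interval -3.10 to -1.54), and the ratio of Sox21 to Sox14 was 8.48 in pup 3 and 2.08 in pup 1. CPM ratios were given only to genes whose mean reached 1 TPM. Sox14 barely passed, with a mean of 1.005 TPM, and only through pup 1 (1.70 TPM, the other pup having 0.310). That limit favours a large gap in a gene so near it, so Sox14 was not ranked against the other Sox genes. Sox2ot lay at -0.98 relative to the all-gene median, while Sox2, which lies inside it, lay at -0.22. Sox30 and Sox15, genes of testis and of muscle precursors, had 7 and 1 counts in pup 3 and 8 and 1 counts in pup 1. Sry was listed at 0 counts in both pups.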
